A study of Mus musculus with 4 samples.

Results

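Ubiquitin ligases of the cullin, kelch, F-box, ASB and TRIM families were examined in mouse muscle. Genes were taken by symbol from the deposited expression table, as those beginning with Klhl, Kbtbd, Fbxo, Fbxl, Fbxw, Asb, Trim or Cul followed by a number. Of 210 such rows, 121 had a mean of at least 1 FPKM over the 4 libraries and were kept, out of 37305 rows in all and 12474 rows at that level. FPKM, fragments per kilobase of transcript scaled to the mapped total, corrects for length, so that genes of different length can be compared. The atrophy and repair ligases Fbxo30, Fbxo32, Fbxo40, Trim63 and Trim72 were set aside by the same rule. The 121 genes comprised 30 kelch, 41 F-box, 16 ASB and 26 TRIM genes and 8 cullins. None was at 0 in any library.

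RNA sequencing compared 2 libraries of MCK-TD muscle (A and B) with 2 libraries of Con-TD muscle (F and G). Both groups were C57BL/6 mice, and the tissue of all 4 libraries is labelled GTN muscle. The labels expand none of these abbreviations. The sources used here do not give the altered allele, the promoter or agent behind it, the age of the mice or whether each library is 1 animal. The p-values therefore reflect how far these libraries differ, possibly for technical reasons alone, and an unrecorded batch cannot be told apart from the genotype.

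Ubiquitin ligases bring a ubiquitin-carrying enzyme to a chosen protein, which is then usually degraded by the proteasome. In cullin ligases, the cullin is a scaffold that holds a RING protein at one end and an interchangeable substrate adaptor at the other. CUL1 takes F-box proteins through SKP1, CUL3 takes BTB-kelch proteins directly, CUL5 takes ASB proteins through elongins B and C, and CUL4A and CUL4B work through DDB1. TRIM proteins carry their own RING domain and need no cullin. Skeletal muscle is rich in tissue-restricted members of these families, several of which keep the sarcomere in order and cause inherited myopathies when mutated.

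The libraries were alike in depth, Con-TD F being the deepest and the others at 0.934 to 0.955 of it, as read from the value of a single fragment in low-abundance rows, and the absolute depth is unknown. Defining muscle genes were abundant in every library. Of 12 such genes, 8 fell and 1 rose in MCK-TD, whereas 6.45% of all rows were called lower and 24.3% higher. The summed level of the 12 genes was 59569 and 62330 FPKM in MCK-TD A and B, against 106584 and 99719 in Con-TD F and G. Why these genes fell was not tested, and a change in the number of fibres cannot be told apart from a change within fibres in such data. Of 12 macrophage markers, 10 could be tested and 7 rose, or 70% beside 24.3% of all rows. Their summed level was 216 and 183 FPKM in MCK-TD, against 40.5 and 58.5 in Con-TD. None of the macrophage markers was at 0 throughout. Other markers were called lower, 3 of 5 for smooth muscle and pericytes (median change -0.81), 2 of 7 for endothelium (-0.53) and 1 of 2 tested for Schwann cells. Of all rows 30.8% were called and 6.45% called lower, and these lists are short. Of 7 fibro-adipogenic markers 0 were called (median change -0.51), but 3 were called lower after median of ratios scaling and after quantile normalization. No adipocyte, satellite cell, neutrophil or erythroid marker was called. Erythroid markers were uneven, summing to 1684 and 1002 FPKM in MCK-TD A and B and 742 and 2804 in Con-TD F and G. Lymphocyte markers summed to at most 1.97 FPKM in MCK-TD and 0.823 in Con-TD. The median row was higher by 0.22 on the log2 scale in MCK-TD as deposited.

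In MCK-TD muscle 25 of the 121 ligase genes rose and 10 fell, while 86 were not called. The call is an adjusted p under 0.05 by limma's moderated test on log2(FPKM + 1), with Benjamini-Hochberg adjustment over all 12474 rows. The share called, 28.9%, lay close to the 30.8% of all rows, with 20.7% higher against 24.3% of all rows and 8.26% lower against 6.45%. The median change of the ligase genes was 0.27 on the log2 scale, beside 0.22 for all rows. Changes ran from -1.26 for Klhl38 to 1.71 for Trim47. The groups did not overlap for 76.9% of the ligase genes, beside 72% of all rows. MCK-TD was the higher in 70 and the lower in 23 of the 121, beside 6320 (50.7%) and 2663 (21.3%) of the 12474 rows. As a class, then, these genes were called about as often as the rest of the table, and what follows concerns which of them moved. After median of ratios scaling 18 rose and 14 fell, and after quantile normalization 13 and 14. After scaling to equal sums without the most abundant genes 18 rose and 11 fell. The share of calls that were higher was then 56.2%, 48.1% and 62.1%, beside 52.1%, 48.8% and 66.3% among all rows. As deposited it was 71.4%, beside 79%. The excess of higher calls thus depended on scaling in the whole table as well as among the ligase genes. The 35 called genes kept their direction under each of the 7 other settings that tested them and in each fit without 1 library; the stricter filter, a mean of at least 5 FPKM, tested 21 of them. No ligase gene was called when 1 library was left out (limma; 37 to 42 of the 121 then had an unadjusted p under 0.05, and 62 to 162 of all rows were called).

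**Figure D1:**
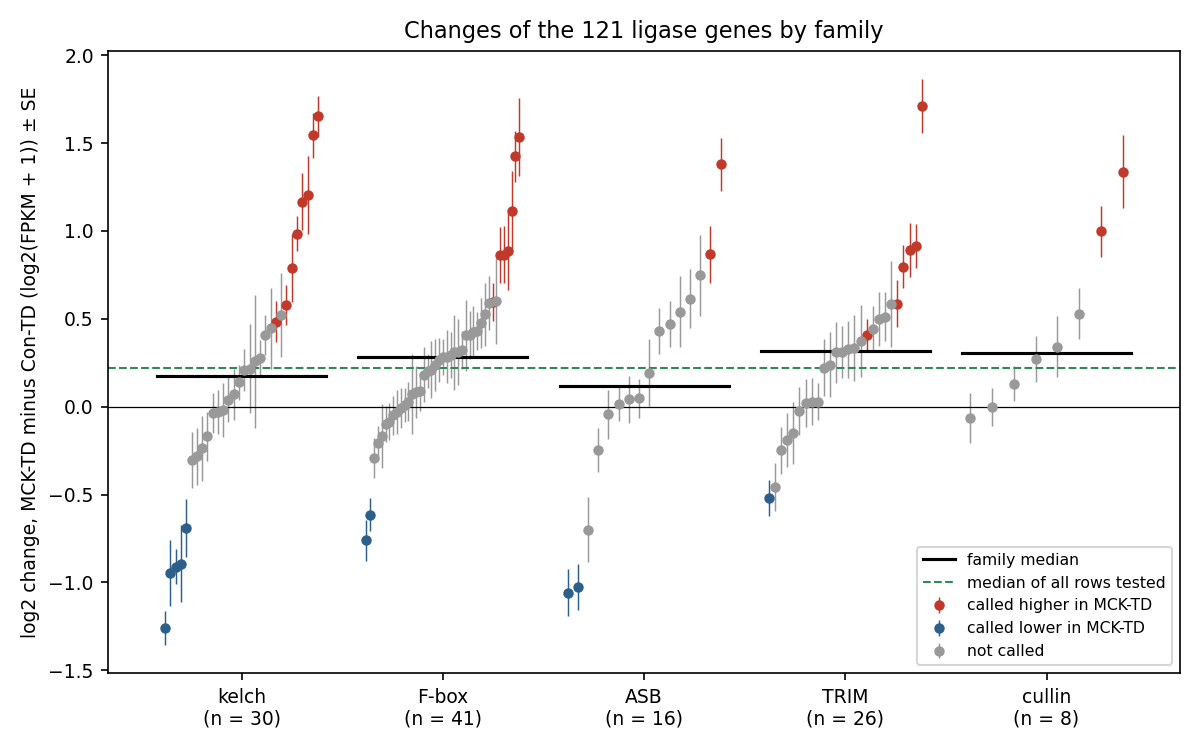
Log2 change of each ligase gene between MCK-TD and Con-TD (y axis, log2(FPKM + 1) scale, bars are standard errors of the fit) by family (x axis), with called genes coloured. The kelch column holds 8 genes called higher and 5 called lower, the most of any family, while the family medians lie close to the dashed median of all rows.

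The cullin scaffolds differed in how they behaved. Cul3, the scaffold of the kelch ligases, was the most abundant, at 224 and 242 FPKM in MCK-TD libraries and 212 and 213 in Con-TD libraries (log2 change 0.13, SE 0.10, limma adjusted p = 0.354). Cul1, the scaffold of the F-box ligases, had 118 and 144 FPKM in MCK-TD, against 85.1 and 95.5 in Con-TD, and just missed the threshold (log2 change 0.53, SE 0.15, limma adjusted p = 0.0596). The groups did not overlap for either scaffold, but the margin was small for Cul3, and its sign turned after median of ratios scaling and after scaling to equal sums. Cul1 kept its direction but was called in 0 of 7 other settings. Its log2 change was 0.25 after median of ratios scaling, 0.35 after quantile normalization and 0.38 after scaling to equal sums. The limma adjusted p-values of Cul1 were then 0.215, 0.116 and 0.116.

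The cullins that rose were of low abundance. Cul7, a scaffold that works with the F-box protein FBXW8, had 5.32 and 6.43 FPKM in MCK-TD, against 1.32 and 2.16 in Con-TD, which is 3.37 times the Con-TD mean (log2 change 1.34, SE 0.21, limma adjusted p = 0.0176). Its partner Fbxw8 was at 5.05 ± 0.280 FPKM in MCK-TD and 4.92 ± 0.262 in Con-TD (mean ± SD, n = 2 each) and was not called. Cul4b, one of a pair of scaffolds that use DDB1, had 6.47 and 7.74 FPKM in MCK-TD, against 3.32 and 2.78 in Con-TD (2.33-fold; limma adjusted p = 0.0162). For both genes the groups lay well apart. Its more abundant paralog Cul4a, at 28.9 ± 4.08 FPKM in MCK-TD and 23.7 ± 0.462 in Con-TD, was not called, nor were Cul2 (42.4 ± 7.17 and 33.1 ± 4.33), Cul5 (15.0 ± 1.01 and 15.1 ± 0.668) or Cul9 (1.38 and 1.41 against 1.48 and 1.52).

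Genes that assemble and recycle cullin ligases were taken from a list of 30. Their median change was 0.35, and 8 rose and 2 fell, or 33.3% called beside 30.8% of all rows. Ddb1, the adaptor of CUL4 ligases, had 76.5 and 88.2 FPKM in MCK-TD, against 39.1 and 38.6 in Con-TD (log2 change 1.06, SE 0.11, limma adjusted p = 0.0106). Uba3, a subunit of the enzyme that activates NEDD8, the small modifier that switches cullins on, had 30.1 and 31.5 FPKM in MCK-TD, against 16.9 and 14.9 in Con-TD. Dcun1d3, which takes part in the control of NEDD8 transfer to cullins, had 3.66 and 4.09 FPKM in MCK-TD, against 1.99 and 2.04 in Con-TD. Its relative Dcun1d2 moved the other way, with 17.1 and 17.6 FPKM in MCK-TD, against 35.7 and 32.8 in Con-TD (log2 change -0.94, SE 0.10, limma adjusted p = 0.0106). The split turned with scaling, to 2 higher and 4 lower after median of ratios scaling and to 2 and 2 after quantile normalization, and Dcun1d3 was called in neither.

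Kelch genes moved in both directions. Of 30 kelch genes 8 rose and 5 fell (43.3% called, beside 30.8% of all rows), and their median change was 0.17. Under each of the 3 other scalings 5 rose and 5 fell. Klhl30, Kbtbd5 and Kbtbd10 rose, whereas Klhl38, Klhl21, Klhl8, Klhl33 and Kbtbd12 fell. The abundant Klhl31 was not called. Summed over the family, kelch transcripts came to 774 and 825 FPKM in MCK-TD, against 511 and 491 in Con-TD.

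Kbtbd10, now named Klhl41, encodes a sarcomere-associated protein that stabilises nebulin and is mutated in human nemaline myopathy. It had the highest mean of the 121 genes over the 4 libraries. It had 391 and 418 FPKM in MCK-TD, against 208 and 199.9 in Con-TD (1.98-fold; log2 change 0.98, SE 0.10, limma adjusted p = 0.00984). The groups did not overlap and duplicates were close. Kbtbd5, now Klhl40, which stabilises nebulin and leiomodin-3 and is likewise a nemaline myopathy gene, had 99.0 and 117 FPKM in MCK-TD, against 34.8 and 37.6 in Con-TD (2.98-fold; log2 change 1.54, SE 0.13, limma adjusted p = 0.00778). Klhl30, a less studied relative, had 69.4 and 61.5 FPKM in MCK-TD, against 19.1 and 21.1 in Con-TD (3.25-fold; log2 change 1.65, SE 0.12, limma adjusted p = 0.00738). In all 3 genes the lower MCK-TD library stood above the higher Con-TD library by a wide gap, and all 3 stayed called under every scaling tried.

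Cul3 was not called, and the ratio of kelch transcripts to their scaffold was higher in both MCK-TD libraries. Summed kelch FPKM was 3.45 and 3.41 times that of Cul3 in MCK-TD libraries, against 2.41 and 2.30 times in Con-TD libraries. Kbtbd10 alone was at 1.75 and 1.73 times Cul3 in MCK-TD, against 0.983 and 0.937 times in Con-TD. It made up 50.6% and 50.7% of the kelch sum in MCK-TD and 40.8% and 40.7% in Con-TD. Klhl31, whose protein targets filamin C, held 9.32% and 10.1% of that sum in MCK-TD, against 15.5% and 16.3% in Con-TD. Its own level was 72.1 and 83.2 FPKM in MCK-TD and 79.3 and 79.8 in Con-TD (log2 change -0.04, SE 0.11), so the share moved while the level did not pass the test. Ratios within a library show unequal levels and were not tested.

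**Figure D2:**
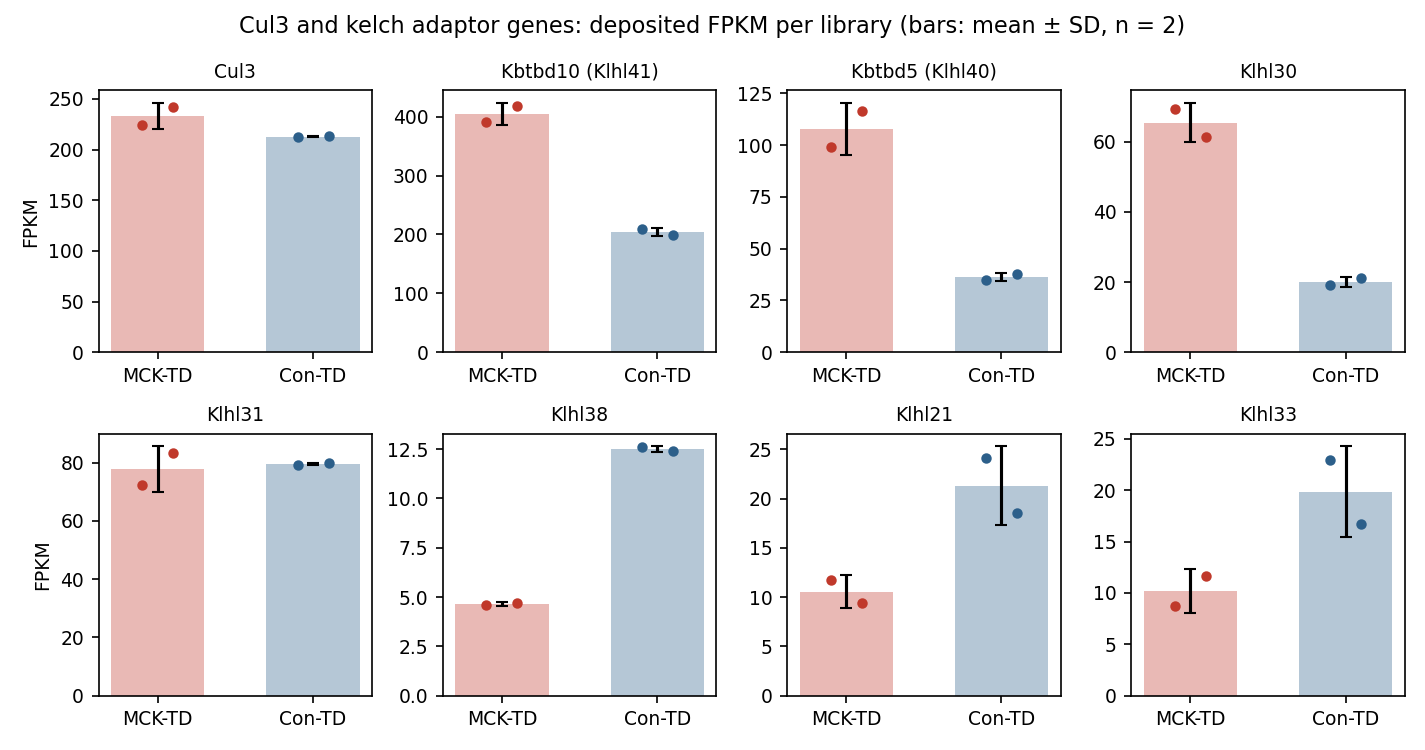
Deposited FPKM (y axes from 0, scales differ between panels) of Cul3 and 7 kelch genes in MCK-TD and Con-TD, with bars for the mean ± SD and points for the 2 libraries of a group. Kbtbd10, Kbtbd5 and Klhl30 stand higher in both MCK-TD libraries, Klhl38, Klhl21 and Klhl33 lower, and the points of Klhl31 overlap.

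Klhl38 fell the most of all 121 genes. It had 4.58 and 4.70 FPKM in MCK-TD, against 12.6 and 12.4 in Con-TD (log2 change -1.26, SE 0.10, limma adjusted p = 0.00778). Klhl21, a CUL3 adaptor that acts on Aurora B in dividing cells, had 11.7 and 9.36 FPKM in MCK-TD, against 24.1 and 18.5 in Con-TD (log2 change -0.95, SE 0.19). The groups did not overlap for either, and duplicates were tighter for Klhl38. Klhl8 had 5.88 and 6.03 FPKM in MCK-TD, against 12.5 and 11.7 in Con-TD, and Klhl33 had 8.70 and 11.7, against 23.0 and 16.7. Kbtbd12 had 3.33 and 3.08 FPKM in MCK-TD, against 6.69 and 4.98 in Con-TD. Limma adjusted p-values of these 4 genes ran from 0.0108 for Klhl8 to 0.0463 for Klhl33. The remaining kelch genes of muscle, Kbtbd13, a further nemaline myopathy gene, at 1.69 ± 0.453 FPKM in MCK-TD and 2.15 ± 0.230 in Con-TD, and Klhl34, at 1.75 ± 0.612 and 1.36 ± 0.469, were not called.

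Further kelch genes of low abundance rose. Klhl2, an actin-binding adaptor that targets WNK kinases, had 3.12 and 4.35 FPKM in MCK-TD, against 0.796 and 1.31 in Con-TD (3.55-fold; limma adjusted p = 0.0248). Klhl23 had 9.38 and 8.38 FPKM in MCK-TD, against 2.91 and 3.94 in Con-TD (2.59-fold; limma adjusted p = 0.0146). Klhl28, Klhl18 and Kbtbd2, with log2 changes of 0.79, 0.58 and 0.48, were called on the deposited scale but under none of the 3 other scalings. The other 14 kelch genes not described by value had log2 changes between -0.30 and 0.52.

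Promoter windows are shown for the 2 most abundant called kelch genes, both higher, and the 3 most abundant called ASB genes, 1 higher and 2 lower, since these carry most of the transcripts that moved in their families. Each window runs from 250 bases before to 50 bases after an annotated start, from RefSeq on GRCm38.p6, another build than mm9 of the deposited values. Capitals mark matches to motifs searched on both strands, and the start site follows base 250. Those were TGACNNNGC (NRF2), TGATGNAA (ATF4), TGTTTAC (FOXO), GAANNTTC (heat shock factor), the interferon response element, and, added after the values were seen, the E-box CAGCTG and the MEF2 element.
Kbtbd10 (Klhl41), chr2:69669870-69670169, plus strand: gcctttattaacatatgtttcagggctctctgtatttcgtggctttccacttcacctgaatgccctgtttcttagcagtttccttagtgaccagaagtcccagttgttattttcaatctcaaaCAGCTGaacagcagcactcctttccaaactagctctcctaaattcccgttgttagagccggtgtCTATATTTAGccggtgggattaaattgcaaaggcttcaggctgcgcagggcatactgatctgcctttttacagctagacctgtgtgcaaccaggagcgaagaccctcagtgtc
Kbtbd5 (Klhl40), chr9:121777357-121777656, plus strand: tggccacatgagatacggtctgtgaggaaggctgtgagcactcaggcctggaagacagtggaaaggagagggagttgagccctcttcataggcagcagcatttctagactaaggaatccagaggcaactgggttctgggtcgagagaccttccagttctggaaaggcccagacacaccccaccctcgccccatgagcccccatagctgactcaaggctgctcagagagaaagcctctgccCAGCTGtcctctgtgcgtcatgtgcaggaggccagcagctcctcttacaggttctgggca
Asb15, chr6:24527894-24528193, plus strand: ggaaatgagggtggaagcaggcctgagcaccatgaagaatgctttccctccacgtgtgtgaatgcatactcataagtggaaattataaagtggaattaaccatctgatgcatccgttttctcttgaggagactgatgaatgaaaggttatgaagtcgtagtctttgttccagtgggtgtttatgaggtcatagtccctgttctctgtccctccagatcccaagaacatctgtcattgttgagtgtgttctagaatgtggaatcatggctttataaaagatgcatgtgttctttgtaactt
Asb11, chrX:164436744-164437043, plus strand: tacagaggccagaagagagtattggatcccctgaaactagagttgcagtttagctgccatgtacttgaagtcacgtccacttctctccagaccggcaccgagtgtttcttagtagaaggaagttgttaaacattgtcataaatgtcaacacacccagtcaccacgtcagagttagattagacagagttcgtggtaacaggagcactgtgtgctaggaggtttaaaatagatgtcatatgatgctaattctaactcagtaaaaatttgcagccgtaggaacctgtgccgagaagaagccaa
Asb14, chr14:26894364-26894663, plus strand: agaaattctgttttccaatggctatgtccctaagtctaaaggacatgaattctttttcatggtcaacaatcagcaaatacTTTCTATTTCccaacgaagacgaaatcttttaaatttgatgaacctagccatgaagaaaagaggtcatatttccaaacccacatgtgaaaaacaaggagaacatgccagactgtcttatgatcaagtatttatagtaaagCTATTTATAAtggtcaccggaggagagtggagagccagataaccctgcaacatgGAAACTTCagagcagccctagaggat

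The windows of the rising Kbtbd10 and Kbtbd5 each held an E-box, 127 and 10 bases before the start, and Kbtbd10 also a MEF2 match 63 bases before it. The window of the falling Asb14 held a MEF2 match 30 bases before the start, with an interferon element match 170 bases before and a GAANNTTC match 24 bases after it. None of the letters searched occurs in the windows of Asb15 and Asb11. RefSeq windows were at hand for 98 of the 121 genes (136 windows). The E-box occurred in 22.8% of those windows, beside 16.3% of all 32851 windows, and MEF2 in 6.62%, beside 3.19%. By call, the E-box was in 16% of windows of genes called higher, 25% of those called lower and 24.3% of those not called. MEF2 was matched in 1 of 25 windows of genes called higher and in 3 of 8 windows of genes called lower. NRF2 letters were in 14% of the ligase windows and 12.4% of all windows, and those of the interferon element in 9.56% and 3.44%. ATF4, FOXO and heat shock letters were in 1.47%, 2.21% and 6.62% of the ligase windows, beside 3.97%, 3.65% and 7.86% of all windows. These matches describe the sequence and were not tested for binding.

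ASB genes encode ankyrin-repeat proteins whose SOCS box docks onto CUL5, and many of them are confined to muscle. Of 16 genes 2 rose and 2 fell (25%, beside 30.8% of all rows), and the median change was 0.12. Asb15 and Asb1 rose, and Asb11 and Asb14 fell. The sum of the family was 625 and 628 FPKM in MCK-TD, against 715 and 626 in Con-TD, and was 43.6 and 39.9 times the level of Cul5 in MCK-TD, against 46.0 and 42.9 times in Con-TD. The family sum did not separate the groups cleanly, so the change lay among its members.

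Asb15, a muscle-restricted gene linked to myoblast differentiation, had 38.1 and 45.9 FPKM in MCK-TD, against 16.8 and 14.2 in Con-TD (2.71-fold; log2 change 1.38, SE 0.15, limma adjusted p = 0.0107). Asb11, which in zebrafish acts on Notch signalling in muscle progenitors, had 67.8 and 76.6 FPKM in MCK-TD, against 164 and 139 in Con-TD (log2 change -1.06, SE 0.13, limma adjusted p = 0.0132). Asb14 had 26.3 and 31.7 FPKM in MCK-TD, against 61.9 and 57.8 in Con-TD (log2 change -1.03, SE 0.13, limma adjusted p = 0.0134). The groups stood well apart in all 3 genes, which were called under all 7 settings other than leaving out a library. Asb1, of low abundance, rose, with 3.16 and 4.04 FPKM in MCK-TD, against 1.64 and 1.38 in Con-TD (limma adjusted p = 0.0260), and was not called with quantile normalization.

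The ASB genes with the highest means over the 4 libraries, Asb5 and Asb2, were not called. In Con-TD alone the called Asb11 had the highest mean, at 151.7 FPKM, beside 151.1 for Asb2 and 138 for Asb5. Asb5 had 178 and 194 FPKM in MCK-TD, against 150.1 and 126 in Con-TD (log2 change 0.43, SE 0.13, limma adjusted p = 0.0750). Asb2, whose protein targets filamins and is linked to loss of muscle mass, had 153 and 139 FPKM in MCK-TD, against 165 and 137 in Con-TD (log2 change -0.04, SE 0.14). Asb11 held 10.8% and 12.2% of the ASB sum in MCK-TD, against 22.9% and 22.3% in Con-TD, and Asb5 held 28.5% and 30.9%, against 21.0% and 20.1%. Asb10 had 21.4 and 15.4 FPKM in MCK-TD, against 31.5 and 28.8 in Con-TD, and missed the threshold on the deposited scale (log2 change -0.70, SE 0.18, limma adjusted p = 0.0539) but passed it, lower in MCK-TD, in 5 of 7 other settings. Of the other muscle ASB genes, Asb8, Asb12, Asb16, Asb18 and Asb4 had log2 changes of 0.04, 0.02, -0.25, 0.75 and 0.54, and none was called. The groups overlapped for Asb2, Asb8 and Asb12.

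**Figure D3:**
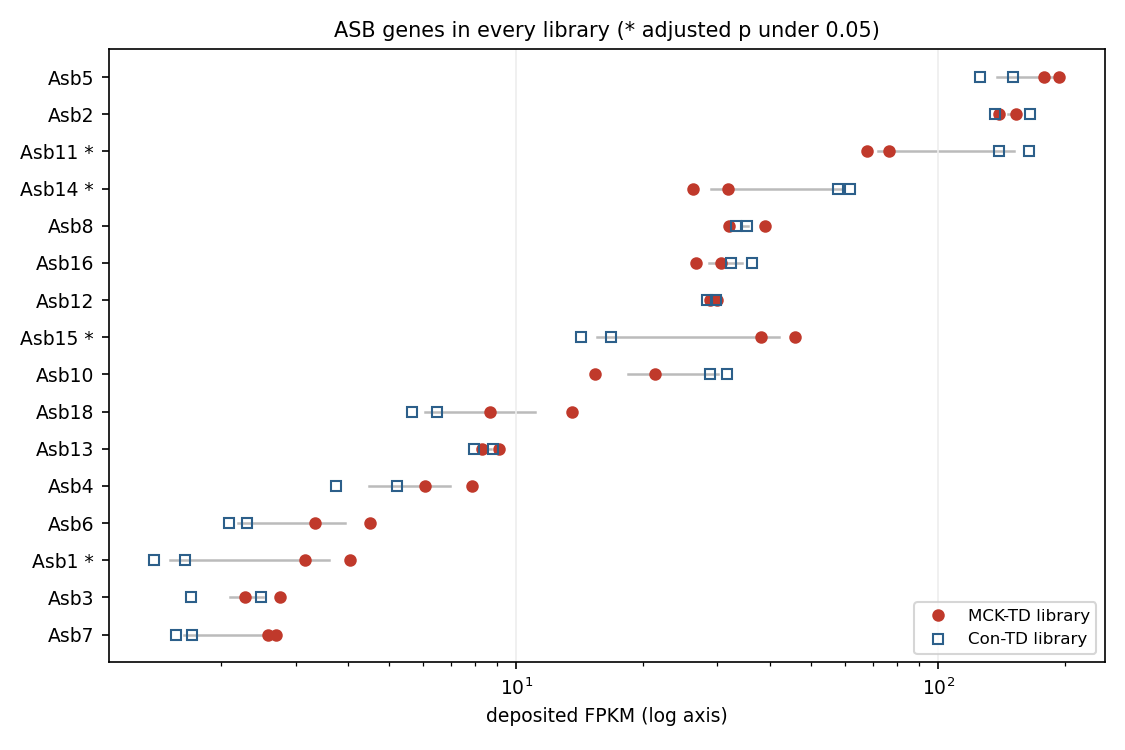
Deposited FPKM (x axis, log scale) of the 16 ASB genes in each MCK-TD library (filled circles) and Con-TD library (open squares), with a line joining the group means and an asterisk for an adjusted p under 0.05. Asb11 and Asb14 lie lower and Asb15 and Asb1 higher in MCK-TD, while the points of Asb2, Asb8 and Asb12 overlap.

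F-box proteins are the adaptors of CUL1, and 32 of the 41 genes were not called. Of the family 7 rose and 2 fell (22%, beside 30.8% of all rows), and the median change was 0.28. After median of ratios scaling 5 rose and 4 fell, and after quantile normalization 2 rose (Fbxo44 and Fbxl22) and 4 fell, with Fbxl16, Fbxo36, Fbxw9, Fbxo4 and Fbxo45 not called. As deposited, the genes that rose were Fbxo44, Fbxl22, Fbxo36, Fbxo4, Fbxl16, Fbxw9 and Fbxo45, and those that fell were Fbxw4 and Fbxo3. Summed F-box FPKM was 3.14 and 2.65 times Cul1 in MCK-TD, against 4.06 and 3.52 times in Con-TD.

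Fbxo44, whose protein is known to target BRCA1, had 12.0 and 7.90 FPKM in MCK-TD, against 2.95 and 2.50 in Con-TD (3.66-fold; log2 change 1.53, SE 0.22, limma adjusted p = 0.0163). Fbxl22, a Z-disc protein that acts on alpha-actinin and filamin C in heart muscle, had 4.83 and 4.0 FPKM in MCK-TD, against 1.01 and 1.01 in Con-TD (4.38-fold; log2 change 1.43, SE 0.15, limma adjusted p = 0.00984). The MCK-TD libraries differed by over 1.5 times for Fbxo44, but both lay far above Con-TD. Fbxo36 had 5.12 and 7.52 FPKM in MCK-TD, against 1.97 and 2.75 in Con-TD (limma adjusted p = 0.0309). Fbxo4, known for cyclin D1 turnover, had 3.08 and 2.69 FPKM in MCK-TD, against 0.774 and 1.49 in Con-TD, and its call (limma adjusted p = 0.0467), like that of Fbxo45, was lost under all 3 other scalings. Fbxl16 was at 1.92 ± 0.231 FPKM in MCK-TD and 0.602 ± 0.00634 in Con-TD, and Fbxw9 at 2.85 ± 0.483 and 1.11 ± 0.0338 (mean ± SD, n = 2 each). Fbxl16 was 1 of 4 genes whose Con-TD mean was under 1 FPKM, so that it was kept through its MCK-TD level.

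Among falling F-box genes, Fbxw4, the gene disrupted in mouse dactylaplasia, had 10.1 and 8.74 FPKM in MCK-TD, against 16.1 and 17.1 in Con-TD (log2 change -0.76, SE 0.12, limma adjusted p = 0.0173). Fbxo3 had 15.1 and 14.6 FPKM in MCK-TD, against 23.0 and 23.6 in Con-TD (log2 change -0.61, SE 0.09, limma adjusted p = 0.0175). Both fell with tight duplicates. The abundant adaptors were not called as deposited: Fbxo9 was at 30.7 ± 1.23 FPKM in MCK-TD and 30.5 ± 0.999 in Con-TD, Fbxo31, which targets cyclin D1, at 30.0 ± 2.54 and 22.1 ± 3.28, and Fbxw5 at 22.4 ± 1.94 and 27.7 ± 1.65, though Fbxw5 was called lower after median of ratios scaling and quantile normalization. Fbxl4, a mitochondrial F-box protein that restrains mitophagy, had a log2 change of 0.09 (SE 0.11). Fbxw7, which targets cyclin E, MYC and NOTCH, had one of 0.28 (SE 0.10), and Fbxo21, linked to muscle atrophy, one of 0.21 (SE 0.16). Of the 5 ligases set aside by the rule, 4 rose as deposited. Fbxo30, Fbxo40 and Trim72 were at 2.78, 1.59 and 3.55 times their Con-TD means (limma adjusted p = 0.00996, 0.0380 and 0.0106). The call of Fbxo40 was lost under all 3 other scalings, whereas those of Fbxo30, Trim63 and Trim72 were kept. Fbxo32, not called, was at 58.8 and 60.3 FPKM in MCK-TD, against 40.6 and 48.8 in Con-TD (limma adjusted p = 0.0763), and Trim63 at 290.2 and 269.6, against 122 and 77.8 (limma adjusted p = 0.0190).

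Of 26 TRIM genes 6 rose and 1 fell (26.9%, beside 30.8% of all rows), and the median change was 0.32. After quantile normalization 3 rose and 2 fell. Trim47, Trim16, Trim35, Trim8, Trim12a and Trim28 rose and Trim7 fell. Trim54, a microtubule-associated sarcomere protein also called MuRF3, made up 40.0% and 35.4% of the TRIM sum in MCK-TD, against 47.0% and 43.3% in Con-TD. Its level was 171 and 147 FPKM in MCK-TD and 173 and 150.2 in Con-TD (log2 change -0.02, SE 0.14). Trim55, or MuRF2, was at 16.4 ± 0.217 FPKM in MCK-TD and 18.5 ± 4.12 in Con-TD. Trim32, the ligase of a limb-girdle muscular dystrophy, was at 3.96 ± 0.549 and 2.51 ± 0.349 (limma adjusted p = 0.0752). These muscle ligases were not called, whereas the muscle genes Trim63 and Trim72, set aside by the rule, rose.

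Trim47 rose the most of all 121 genes. It had 7.32 and 7.30 FPKM in MCK-TD, against 1.27 and 1.84 in Con-TD (4.70-fold; log2 change 1.71, SE 0.15, limma adjusted p = 0.00863). Trim16, which takes part in the response to damaged lysosomes and in NRF2 signalling, had 16.4 and 16.8 FPKM in MCK-TD, against 9.13 and 7.58 in Con-TD (log2 change 0.92, SE 0.12, limma adjusted p = 0.0142). Trim35 had 52.4 and 63.3 FPKM in MCK-TD, against 28.0 and 33.3 in Con-TD (1.89-fold; limma adjusted p = 0.0221). In all 3 genes the groups stood clear of each other. Trim8, a regulator of cytokine signalling and p53, had 14.3 and 12.6 FPKM in MCK-TD, against 6.87 and 7.73 in Con-TD (log2 change 0.80, SE 0.12, limma adjusted p = 0.0176). Its call was lost after quantile normalization. Trim28, the corepressor KAP1, had 45.1 and 47.3 FPKM in MCK-TD, against 34.0 and 35.2 in Con-TD, and its call (limma adjusted p = 0.0409) was lost under all 3 other scalings. Trim7, which binds glycogenin, the primer of glycogen synthesis, had 10.9 and 11.6 FPKM in MCK-TD, against 15.9 and 17.3 in Con-TD (log2 change -0.52, SE 0.10, limma adjusted p = 0.0298). Trim24, a chromatin reader, had a log2 change of -0.25 (SE 0.13) and was not called.

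Many TRIM genes are interferon-inducible or expressed in macrophages. Trim12a, a mouse relative of the antiviral gene TRIM5, had 4.96 and 6.02 FPKM in MCK-TD, against 3.36 and 3.25 in Con-TD, but it shares sequence with near-identical copies such as Trim12c and its value is uncertain. Its call was lost under all 3 other scalings. Trim25, which activates the RNA sensor RIG-I, was at 1.61 ± 0.0337 FPKM in MCK-TD and 1.11 ± 0.0906 in Con-TD and was not called. Of 25 interferon-inducible genes 17 could be tested and 4 rose (Igtp, Irf7, Ifi35 and Bst2), with log2 changes of 3.01, 1.07, 0.83 and 0.64, and the median change of the 17 was 0.56. That is 23.5% higher, beside 24.3% of all rows. The part of macrophages, whose markers had a median change of 1.74, in the TRIM values was not tested.

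**Figure D4:**
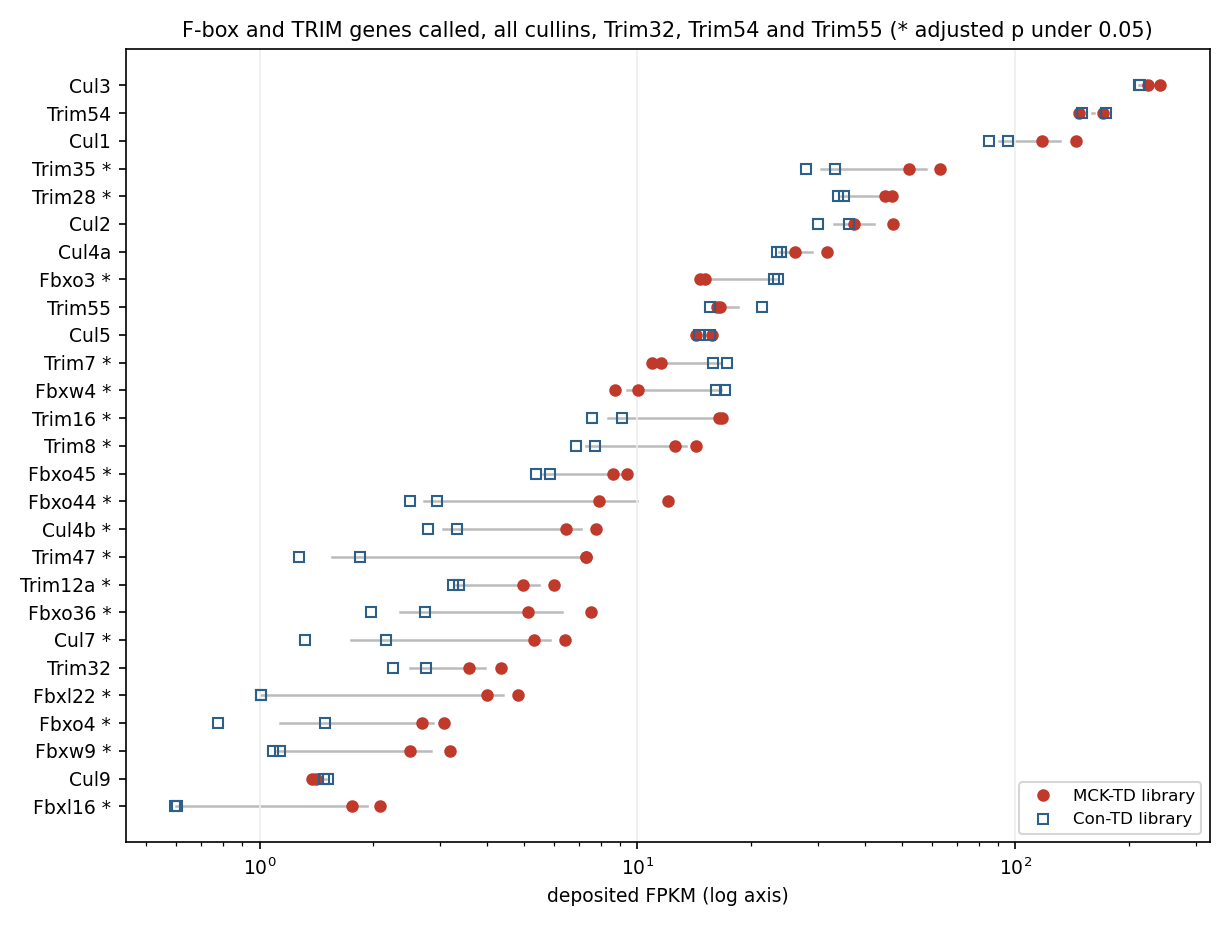
Deposited FPKM (x axis, log scale) of the called F-box and TRIM genes, the 8 cullins, Trim32, Trim54 and Trim55 in each MCK-TD library (filled circles) and Con-TD library (open squares), with a line joining group means and an asterisk for an adjusted p under 0.05. The abundant Cul3 and Trim54 show little distance between groups, while Trim47, Cul7 and Fbxl22 lie far to the right in MCK-TD.

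Adaptors and ligases outside the name rule were taken from a list of 57 genes, of which 51 could be tested. Their median change was 0.32, and 10 rose and 4 fell, or 27.5% called beside 30.8% of all rows. After median of ratios scaling 5 rose and 8 fell, and after quantile normalization 5 and 7. Spsb2, which targets the inducible nitric oxide synthase, had 10.6 and 10.3 FPKM in MCK-TD, against 1.07 and 1.41 in Con-TD (log2 change 2.36, SE 0.13, limma adjusted p = 0.00599). Wsb2 had 130 and 127 FPKM in MCK-TD, against 36.5 and 35.7 in Con-TD (log2 change 1.81, SE 0.09, limma adjusted p = 0.00574). Socs2, a brake on growth hormone signalling, had 4.20 and 4.43 FPKM in MCK-TD, against 9.48 and 19.5 in Con-TD, and Btbd2 had 5.16 and 4.04, against 11.4 and 10.9. Both of these fell (limma adjusted p = 0.0430 and 0.0128). Keap1, the CUL3 adaptor that holds NRF2 down, named after its values were seen, was at 9.67 and 10.1 FPKM in MCK-TD, against 13.1 and 12.6 in Con-TD, and missed the threshold as deposited (limma adjusted p = 0.0608) but was called lower under the 3 other scalings.

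Proteins that these ligases are known to bind, stabilise or mark were listed as 30 genes, of which 27 could be tested. Among them 11 rose and 4 fell, or 55.6% called beside 30.8% of all rows, counting Nrap, which stands on 2 rows, by its first. The leiomodin Lmod2 and the filamin Flnc rose by 3.32 and 1.66 on the log2 scale, and the clock repressor Cry2 rose by 1.78. Mybpc2, fast myosin-binding protein C, fell by 2.03 on the log2 scale. Lmod3 and Neb, clients of the proteins of Kbtbd5 and Kbtbd10, were named after their values were seen. Lmod3 had 81.3 and 66.7 FPKM in MCK-TD, against 30.5 and 42.5 in Con-TD (limma adjusted p = 0.0312), a call lost after median of ratios scaling and quantile normalization. Neb had 866 and 1038 FPKM in MCK-TD, against 1358 and 1172 in Con-TD (limma adjusted p = 0.109). Of these 2 clients only Lmod3 passed the test, and the difference between them was not tested.

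**Figure D5:**
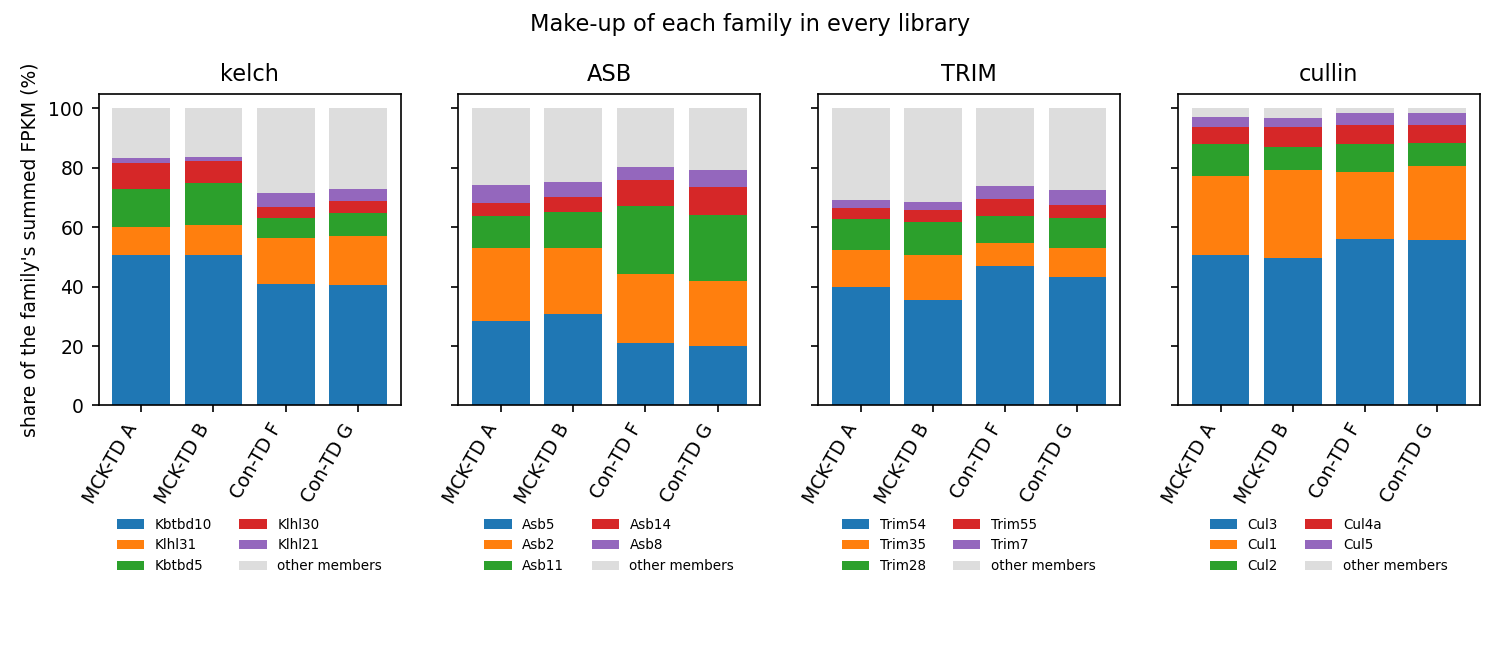
Share of each family's summed FPKM (y axis, percent) held by its 5 most abundant genes and by the others, in each library (x axis), for the kelch, ASB, TRIM and cullin genes. Kbtbd10 holds 50.6% and 50.7% of the kelch sum in MCK-TD, against 40.8% and 40.7% in Con-TD, and Asb11 holds 10.8% and 12.2% of the ASB sum, against 22.9% and 22.3%.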

How the data were processed

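Total RNA from muscle (Trizol, DNase) was enriched for mRNA and sequenced at BGI, per the labels' protocols and the design text. The deposited values are FPKM computed by the authors. Per the submitters' processing notes, STAR, Cufflinks and mm9 were used, with no version or role stated, and the annotation is not given in the sources used here. Counts and absolute depth cannot be had from these values. Limma 3.58.1 under R 4.3.3 fitted genotype alone to log2(FPKM + 1) over the 12474 rows with a mean of at least 1 FPKM (2 residual degrees of freedom, intensity trend, two-sided, Benjamini-Hochberg), so changes of low genes are understated. The fit was also run on simulated data with independent noise and few changed rows, all with a mean of at least 5 FPKM. In these data 30.8% of rows were called, so that run does not show how sound the calls are here. An exact permutation test of 2 against 2 libraries cannot go below 0.333 and was not used. Folds are ratios of mean FPKM. Each cullin was named, and in other families the 6 called genes with the largest change, the 3 most abundant and a list of muscle genes. From each other list up to 4 were named. Further genes were named after their values were seen. The genes, lists and tests were chosen with earlier results of these data known. Older symbols (Kbtbd5, Kbtbd10) were matched to current ones through RefSeq. Text notes deposited beside some genes were not used here.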

Additional observations from a re-analysis of the deposited data

How the results depend on the processing

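No paired analysis was possible because the libraries carry letters that the groups do not share. Leaving out 1 library leaves a lone library, assumed to vary like the others, and fewer degrees of freedom. Calls then numbered 0 among ligase genes, higher, lower and in each family, with each library left out, and 62 to 162 among all genes (12 to 154 higher, 8 to 68 lower). They were 0 for the cullin machinery and the other adaptors, 0 to 1 for client proteins and 0 to 1 for interferon-inducible genes. The lowest adjusted p of a ligase gene in these limma fits was 0.0648, for Trim47. Without a filter on low values limma called 12 ligase genes (7 higher, 5 lower; 5 kelch, 2 F-box, 2 TRIM, 0 cullin genes) and 2043 of all genes (1668 higher, 375 lower), with 5, 7, 8 and 1 calls among machinery, other adaptors, clients and interferon genes. With a mean of at least 5 FPKM, which leaves 67 ligase genes, 22 were called (12 higher; 8 kelch, 4 F-box, 1 cullin) and 2 interferon genes. With median of ratios scaling all genes gave 1770 higher and 1629 lower calls, machinery 6 and interferon genes 2. With quantile normalization they gave 1588 and 1667, machinery 4, interferon genes 2 and higher ligase genes 13, and the muscle gene Tnni2 had a log2 change of 0.0292, against -0.52 as deposited. Scaled without mitochondrial, small RNA and the 20 most abundant other genes, machinery gave 6. Of the 35 ligase calls, 28, 23 and 28 remained under these 3 scalings, 35 with a pseudocount of 0.1 and 33 without an intensity trend. Why the number of calls differed between settings was not tested.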

Other observations

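Of the 210 rows with ligase names, 89 had a mean under 1 FPKM and were not among the genes described, and 11 of them were listed at 0 in every library. Nearest to that limit, Trim30a averaged 0.933 and Klhl15 0.929 FPKM on the low side, and Trim12c 1.06 and Fbxl18 1.19 FPKM on the high side. In the limma fit without a filter, 4 of the 89 were called. Klhl35 had 0.353 and 0.281 FPKM in MCK-TD, against 0.00532 and 0.00569 in Con-TD. Trim36 had 0.0903 and 0.0912 FPKM in MCK-TD, against 0.0191 and 0.0217 in Con-TD. Fbxo16 had 0.0873 and 0.0859 FPKM in MCK-TD and was listed at 0 in both Con-TD libraries. Fbxo15 was lower, with 0.0233 and 0.0356 FPKM in MCK-TD, against 0.0940 and 0.102 in Con-TD. All 4 are far below the level of the genes in the report.

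Duplicate libraries were close for most ligase genes. The higher library was a median 1.13 times the lower in MCK-TD and 1.13 times in Con-TD. The libraries differed by over 1.5 times for 8 genes in MCK-TD and for 9 in Con-TD, the most for Kbtbd8 in MCK-TD (0.723 and 2.43 FPKM, a ratio of 3.37), which was not called.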
